A study of Oryza sativa with 6 samples.

Results

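Genes of gibberellin synthesis and signalling were followed in roots of transgenic rice. They were chosen by name, as the rice genes whose symbol or synonym equals one of 10 names: OsCPS, OsKAO, GA20ox1, GA20ox2, GA20ox3, GA3ox2, GA2ox1, GID1, GID2 and SLR1. Of the 10 names, 7 matched a gene and 3 (GA20ox1, GA3ox2 and GA2ox1) had no match in the gene tables used, so they were not analysed here. The 7 names led to 9 genes, of which 8 had a probe set, with 9 probe sets among the 57194 on the array and 8 genes among 17905 named there. One gene named CPS is CARB, a carbamoyl phosphate synthetase subunit that shares only the letters with ent-copalyl diphosphate synthase. It is shown as a match of the name and is no gibberellin gene.

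Huahui 1 (HH1), a transgenic rice line in the Minghui 63 background, had 3 biological replicates. They were set against the non-transgenic Minghui 63 itself (MH63), also with 3. All 6 samples were roots of 30-day plants grown in nutrient solution in a climate chamber, each read on 1 Affymetrix rice array. HH1 is a single transgenic line, so the effect of its transgene cannot be told apart from any other difference of that line, and the labels do not say whether a replicate pooled plants. The series was made to search HH1 roots for altered genes and pathways that could point to side effects of the transformation.

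Gibberellins are diterpenoid hormones that drive elongation growth, seed germination and flowering. They are made in the order ent-copalyl diphosphate, ent-kaurene, ent-kaurenoic acid and then a series of gibberellins, of which GA 20-oxidases and GA 3-oxidases form the active ones and GA 2-oxidases remove them. The receptor GID1 binds the hormone and then the DELLA protein SLR1, a repressor of gibberellin responses, which the F-box protein GID2 sends to degradation. In many plants the transcripts of synthesis enzymes and of the receptor are themselves under negative feedback from gibberellin signalling.

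The values are deposited signals on a linear scale, 1 per probe set and array. Levels were not compared between genes, because probe sets differ in brightness for the same amount of RNA. Background was set on each array at the 95th percentile of 64 reporter probe sets, which stand for foreign marker genes, and ran from 37.1 to 42.3. Median signals ran from 33.1 to 33.8. HH1 replicate 2 stood apart in 18S ribosomal RNA, at 3446 against 811 to 1457 on the other arrays, and pairs of HH1 arrays correlated at 0.93 to 0.97 in log2 signal, pairs of MH63 arrays at 0.97 to 0.98 and mixed pairs at 0.95 to 0.98, all across probe sets. Probe sets are not independent replicates. Root markers were present as labelled: 9 of 11 matched genes lay above the background level on all 6 arrays. Among them was the silicon transporter LSI1, at a mean of 7682 in HH1 and 6662 in MH63. The root patterning gene SCR1 lay at or below background on every array. The remaining match also carries the name GRF4, shares only the name PT2 with the intended gene, and is no root marker. It was above background on 2 arrays of each genotype.

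Between the genotypes no gibberellin gene passed the test. Among the synthesis enzymes matched by name, every HH1 array lay below every MH63 array for OsCPS and GA20ox3, both clearly above background. Of all tested probe sets, 5.27% showed this order. OsKAO and GA20ox2 had it too, but their signals were near or under background. For KS1 and KO2, synthesis genes from the list of other pathway genes, the groups overlapped, with log2 differences of -0.33 and 0.072. SLR1 and GID1 had lower means in HH1 with overlapping groups, and the probe set assigned to GID2 had near-equal means. Of all 28597 probe sets tested, 0.112% passed, at a limma p below 0.05 after Benjamini-Hochberg adjustment over all of them.

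GA20ox3, one of the GA 20-oxidases that carry gibberellin precursors through the late steps of synthesis, had the widest separation relative to its spread among the members above background on all arrays. Its signal was 392, 369.7 and 377 in HH1 replicates 1 to 3, against 532, 456 and 499 in MH63 replicates 1 to 3. The highest HH1 array lay below the lowest MH63 array, and the HH1 arrays lay close together. The HH1 mean was 379.7 ± 11.4 and the MH63 mean 496 ± 38.1 (SD, n = 3 each), and the log2 difference of -0.38, with a standard error of 0.11, gave a ratio of 0.77 with a 95% interval of 0.64 to 0.93 that is not corrected for the number of probe sets. In limma p was 0.013 before and 1.00 after adjustment, so the difference did not pass. For 3 samples against 3 the smallest two-sided exact permutation p is 0.1.

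OsCPS, the ent-copalyl diphosphate synthase that commits diterpenoid precursor to gibberellin, showed the same order of groups. Its signal was 135, 139 and 146 in HH1 and 197, 162 and 158 in MH63. All HH1 arrays lay below all MH63 arrays, and most of the MH63 spread came from MH63 replicate 1. The log2 difference was -0.30 with a standard error of 0.14, a ratio of 0.81 with a 95% interval of 0.65 to 1.02, with a limma p of 0.067 before and 1.00 after adjustment. Without MH63 replicate 1 the log2 difference was -0.20.

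OsKAO encodes ent-kaurenoic acid oxidase, a cytochrome P450 between ent-kaurenoic acid and the first gibberellin. Its probe set read 30.0, 33.3 and 27.5 in HH1 and 43.3, 38.6 and 33.9 in MH63. All HH1 arrays were at or below background and 2 of the 3 MH63 arrays were above it, so no fold is given. The unadjusted p in limma was 0.038 and the adjusted p 1.00.

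GA20ox2, the GA 20-oxidase known in rice as the semidwarf gene SD1, read 29.7, 29.0 and 30.2 in HH1 and 34.2, 33.7 and 36.0 in MH63. The groups did not overlap, but every array of both genotypes was at or below background, and the probe set also fell under the brightness filter of the test. This says that its signal was not above the reporter probes in these roots, not that the transcript was absent.

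**Figure D1:**
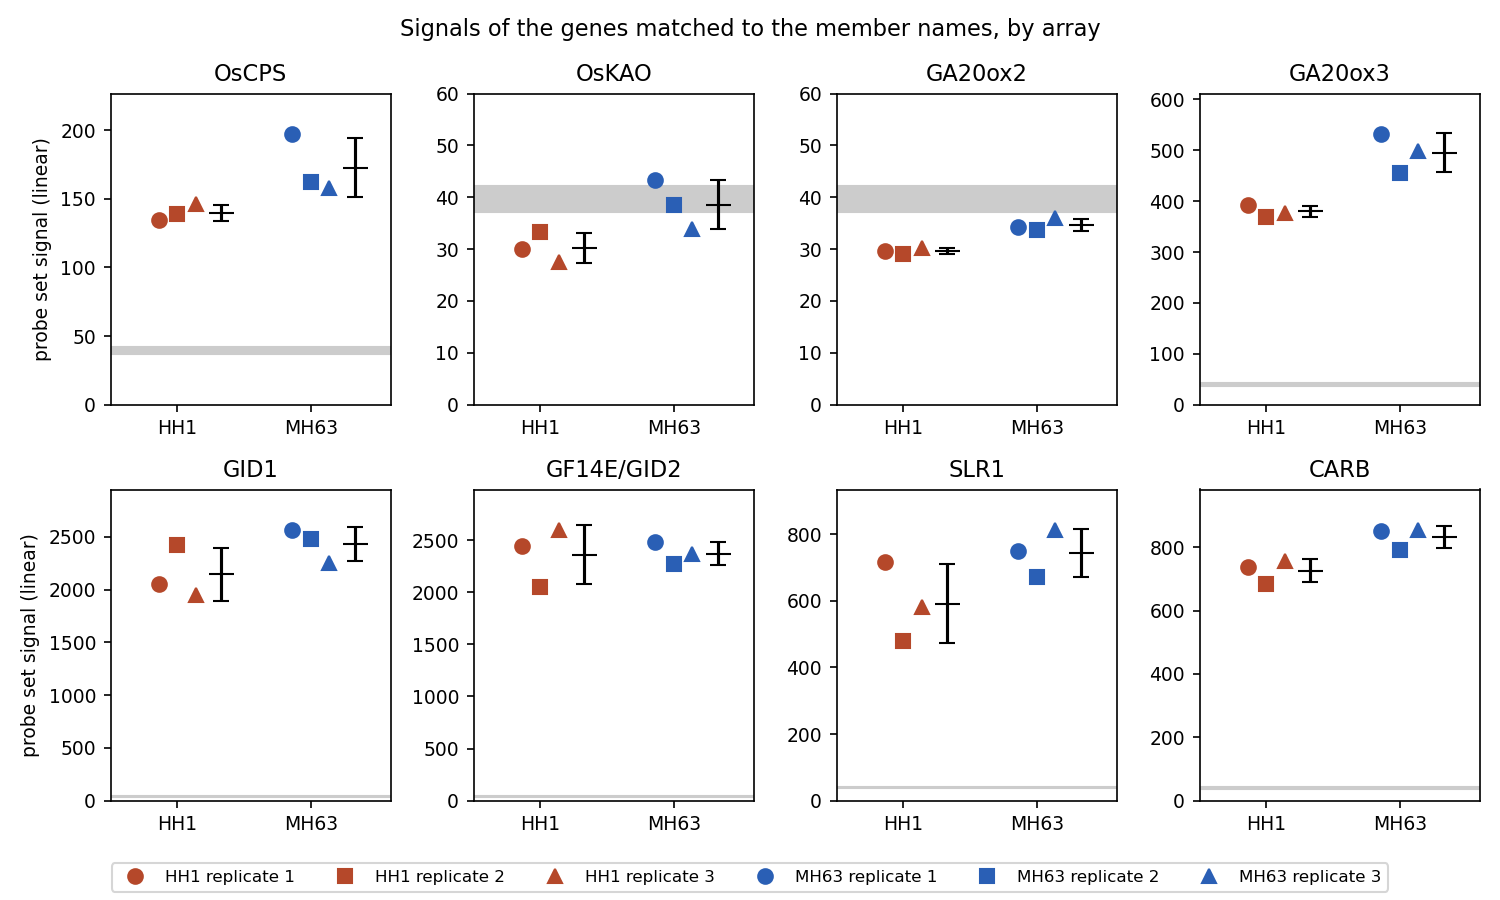
Linear probe set signal of each matched gene on each array, with HH1 in red on the left and MH63 in blue on the right of every panel; the black mark beside each group is the mean with its SD (n = 3), and the grey band is the range of the background level, 37.1 to 42.3. The HH1 points lie below all MH63 points for OsCPS, OsKAO, GA20ox2, GA20ox3 and CARB, OsKAO lies around the band and GA20ox2 under it, and the groups overlap for GID1, GF14E/GID2 and SLR1.

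Among the matched signalling genes, SLR1, a DELLA protein, varied most. Its signal was 716, 478 and 581 in HH1 and 748, 670.1 and 812 in MH63. HH1 replicate 1 lay inside the MH63 range and the other HH1 arrays below it. The HH1 mean was 592 ± 119 and the MH63 mean 744 ± 71.1 (SD, n = 3 each), for a log2 difference of -0.34 (standard error 0.17), and the ratio of 0.79 had a 95% interval of 0.59 to 1.05. In limma p was 0.087 before and 1.00 after adjustment. The lowest array was HH1 replicate 2, which also had the high 18S signal; without it the log2 difference was -0.20, and without HH1 replicate 1 it was -0.49. The part of the 18S signal in this was not tested.

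GID1, the soluble gibberellin receptor, read 2055, 2427 and 1951 in HH1 and 2565, 2480.5 and 2255 in MH63. HH1 replicate 2 lay inside the MH63 range, and HH1 replicates 1 and 3 lay below it. The log2 difference was -0.19 with a standard error of 0.12 (limma, adjusted p 1.00), and the 95% interval of the ratio was 0.72 to 1.07. Without HH1 replicate 2 the difference was -0.28, with an unadjusted p of 0.024 and an adjusted p of 0.47, and without HH1 replicate 3 it was -0.12, with an unadjusted p of 0.40. A second GID1 probe set read between 9.45 and 15.1 on the 6 arrays, under background on each, and adds no level for the gene.

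The name GID2 belongs to 2 genes in the annotation, LOC4329775 and LOC112937812, and the second lies inside the interval of the first. LOC4329775 also carries the name GF14E, a 14-3-3 protein. Its probe set cannot be assigned to one of them from the tables used, and LOC112937812 had none. The signal of that probe set was 2443, 2046 and 2597 in HH1 and 2479, 2267 and 2369.9 in MH63. HH1 held both the highest and the lowest array, and the log2 difference was -0.012 with a 95% interval of -0.30 to 0.28. Its sign turned without HH1 replicate 2 (0.088), without MH63 replicate 1 (0.020) and with array weights (0.058).

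CARB, matched by name alone, read 737, 685 and 756 in HH1 and 851, 793 and 854 in MH63. These groups did not overlap either, with a log2 difference of -0.20 (limma, adjusted p 1.00). A gene outside the pathway thus showed a separation of the same kind, with a ratio of 0.87.

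Counts were taken over the 6 genes above background on all 6 arrays, CARB among them. All 6 had a log2 difference below 0, with a median of -0.25, where 53.6% of all tested probe sets were below 0 and their median was -0.014. That of GF14E/GID2, whose probe set could not be assigned to GID2, was -0.012 and turned positive in 3 of 14 alternatives. Groups did not overlap, with HH1 lower, for 3 of the 6 (OsCPS, GA20ox3 and CARB), where 5.27% of all tested probe sets did so. None of the 6 passed the test, and 1 (GA20ox3) had an unadjusted p under 0.05, as did 4.01% of all tested probe sets. OsKAO is left out of these counts, since it passed the brightness filter through its MH63 signal and was no longer tested without MH63 replicate 1 or without MH63 replicate 2. GA20ox2 did not pass the filter. The genes share arrays, so they are not separate repeats of the comparison.

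For the same 6 genes the lowest array was an HH1 array in 6, as for 64.0% of all tested probe sets, and the highest an MH63 array in 5, against 43.9%. HH1 replicate 2 was the lowest in 4, against 32.0%, and MH63 replicate 1 the highest in 3, against 23.6%. HH1 replicate 2 and MH63 replicate 1 thus held these places most often over all tested probe sets too. The signs of OsCPS, GA20ox3, GID1, SLR1 and CARB were the same in all 14 alternatives. Log2 differences of GA20ox3 ran from -0.44 to -0.33 over them, those of OsCPS from -0.35 to -0.20, and those of SLR1 from -0.49 to -0.20. None of these genes passed in any alternative, with a lowest adjusted p of 0.46 for GA20ox3, 0.47 for GID1 and 0.63 for OsCPS.

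**Figure D2:**
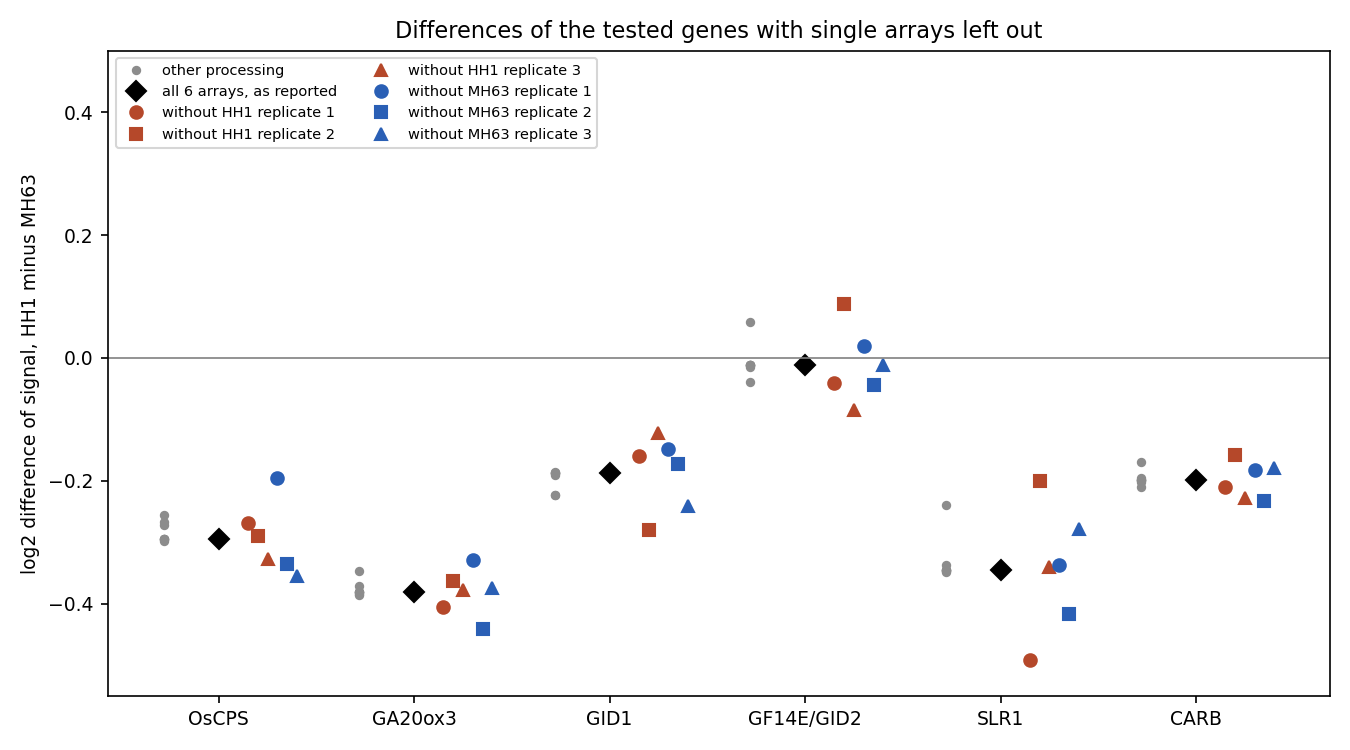
Log2 difference of signal, HH1 minus MH63, for the 6 matched genes above background on all arrays: black diamonds are the values from all 6 arrays, coloured marks leave out the named array, and grey dots are other processing. GA20ox3 stays between -0.44 and -0.33, SLR1 moves most, between -0.49 and -0.20, and GF14E/GID2 lies on both sides of 0.

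Material from shoots was followed through 10 green shoot markers, of which 4 lay above background on all arrays and 0 lay at or below it on all. Their summed signal was 706, 1909.9 and 626 in HH1 and 2353, 2412 and 611 in MH63, and 7 of 8 tested markers had a log2 difference below 0 with a median of -0.52. CAB2R alone gave 1109 of the sum on HH1 replicate 2, 1368 and 1373 on MH63 replicates 1 and 2, and 30.2 on MH63 replicate 3. For PSB28 and CHL1, 2 of the 8 tested, every HH1 array lay below every MH63 array, as for 5.27% of all tested probe sets. MH63 replicate 3 was as low as HH1 replicates 1 and 3 in the sum, and lower than HH1 replicate 2. Its GA20ox3 signal was 499 and its SLR1 signal 812, the highest of all arrays. Its OsCPS signal of 158, OsKAO signal of 33.9 and GID1 signal of 2255 were the lowest of the MH63 arrays. HH1 replicate 2 was the highest HH1 array in the sum of green markers and had the lowest GA20ox3 and SLR1 signals, but the highest GID1 signal of the HH1 arrays. In a bulk root sample, fewer cells of a type and less RNA per cell cannot be told apart, and the part of green tissue in the differences above was not tested.

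The rest of the pathway was read from a list of other gibberellin genes, by role. It gave 17 genes with a probe set, of which 16 passed the brightness filter and 13 lay above background on all 6 arrays. None of the 16 passed the test in either direction, 8 had a log2 difference above 0 and 8 below, the median was 0.033, and the groups overlapped for all 16. The count below 0 was 4 without HH1 replicate 3. No gene of the list had an unadjusted p under 0.05 in the main fit. With the replicate block KS1 had an unadjusted limma p of 0.034 and an adjusted p of 0.999, where 1334 of 28597 tested probe sets were under 0.05 unadjusted. KOL4, KOL5 and AMY3D fell under 0.05 unadjusted with 1 array left out.

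Early steps of synthesis were represented by KS1 and KO2 besides relatives. KS1, the ent-kaurene synthase that acts directly after OsCPS, read 71.1, 74.4 and 47.9 in HH1 and 88.2, 94.7 and 59.9 in MH63. In both genotypes replicate 3 was the lowest, the groups overlapped, and the log2 difference was -0.33 with a standard error of 0.24. It was -0.13 without HH1 replicate 3 and -0.53 without MH63 replicate 3. Its probe set can also bind related transcripts. KO2, the ent-kaurene oxidase known in rice as D35, read 146, 117 and 131 in HH1 and 117, 127 and 129 in MH63, a log2 difference of 0.072 with a 95% interval of -0.25 to 0.39. A second KO2 probe set differed by 0.099, and both can bind related transcripts.

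KOL4 and KOL5, cytochrome P450s closely related to KO2, behaved unlike the members. KOL4, also listed as KO1, has been linked in rice to diterpenoid phytoalexins rather than gibberellin. It read 1236, 1591 and 40.5 in HH1 and 133, 326 and 127 in MH63. HH1 replicates 1 and 2 lay far above every MH63 array and HH1 replicate 3 lay below every one. The log2 difference was 1.29 with a standard error of 1.35 (limma, adjusted p 1.00). Leaving out HH1 replicate 1 gave 0.52, and leaving out HH1 replicate 2 gave 0.34. Without HH1 replicate 3 it was 2.99, with an adjusted p of 0.040, and this was the only call among all named gibberellin genes and alternatives. Leaving out that array raised calls over the whole array too, to 306 of 28597 tested probe sets, against 32 in the main fit. The KOL4 call is thus not particular to this gene.

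KOL5 read 126, 222 and 13.1 in HH1 and 22.1, 66.9 and 19.6 in MH63, the same order of arrays as KOL4. Its log2 difference was 1.22 with a standard error of 1.05, and 2.45 without HH1 replicate 3, with an adjusted p of 0.21. It was 0.81 without HH1 replicate 1 and 0.41 without HH1 replicate 2. KOL5 was above background on 2 HH1 arrays and 1 MH63 array. Both genes were thus split within HH1, whereas the HH1 signals of OsCPS, upstream of KO2, lay between 135 and 146.

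Inactivation was measured through cytochrome P450s of the CYP714 family only, since no GA 2-oxidase was named in the tables. EUI1, which oxidises gibberellins to less active forms, read 76.1, 121 and 87.9 in HH1 and 82.5, 91.3 and 87.6 in MH63. Its log2 difference was 0.098 with a 95% interval of -0.35 to 0.55, and it turned to -0.090 without HH1 replicate 2. CYP714C1 and CYP714C2, relatives of EUI1, were near background, with log2 differences of -0.095 and 0.080. The CYP714C2 probe set can bind related transcripts.

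Further signalling genes were close to level between the genotypes. SPY, an O-linked sugar transferase that acts on gibberellin signalling, read 423, 422 and 367 in HH1 and 424, 425 and 369 in MH63. Replicate 3 was the lowest in each genotype, and the log2 difference was -0.0072 with a 95% interval of -0.31 to 0.29. EL1, a casein kinase that phosphorylates SLR1, read 801, 886 and 942 in HH1 and 879, 733 and 838 in MH63, a log2 difference of 0.10 with overlapping groups. SLRL1, a relative of SLR1 that lacks the DELLA motif, read 67.1, 119.96 and 98.8 in HH1 and 91.7, 84.5 and 81.3 in MH63. GDD1, a kinesin-like protein that in rice binds the promoter of a gibberellin synthesis gene, read 1079, 669.5 and 995 in HH1 and 896, 905 and 1020.5 in MH63.

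**Figure D3:**
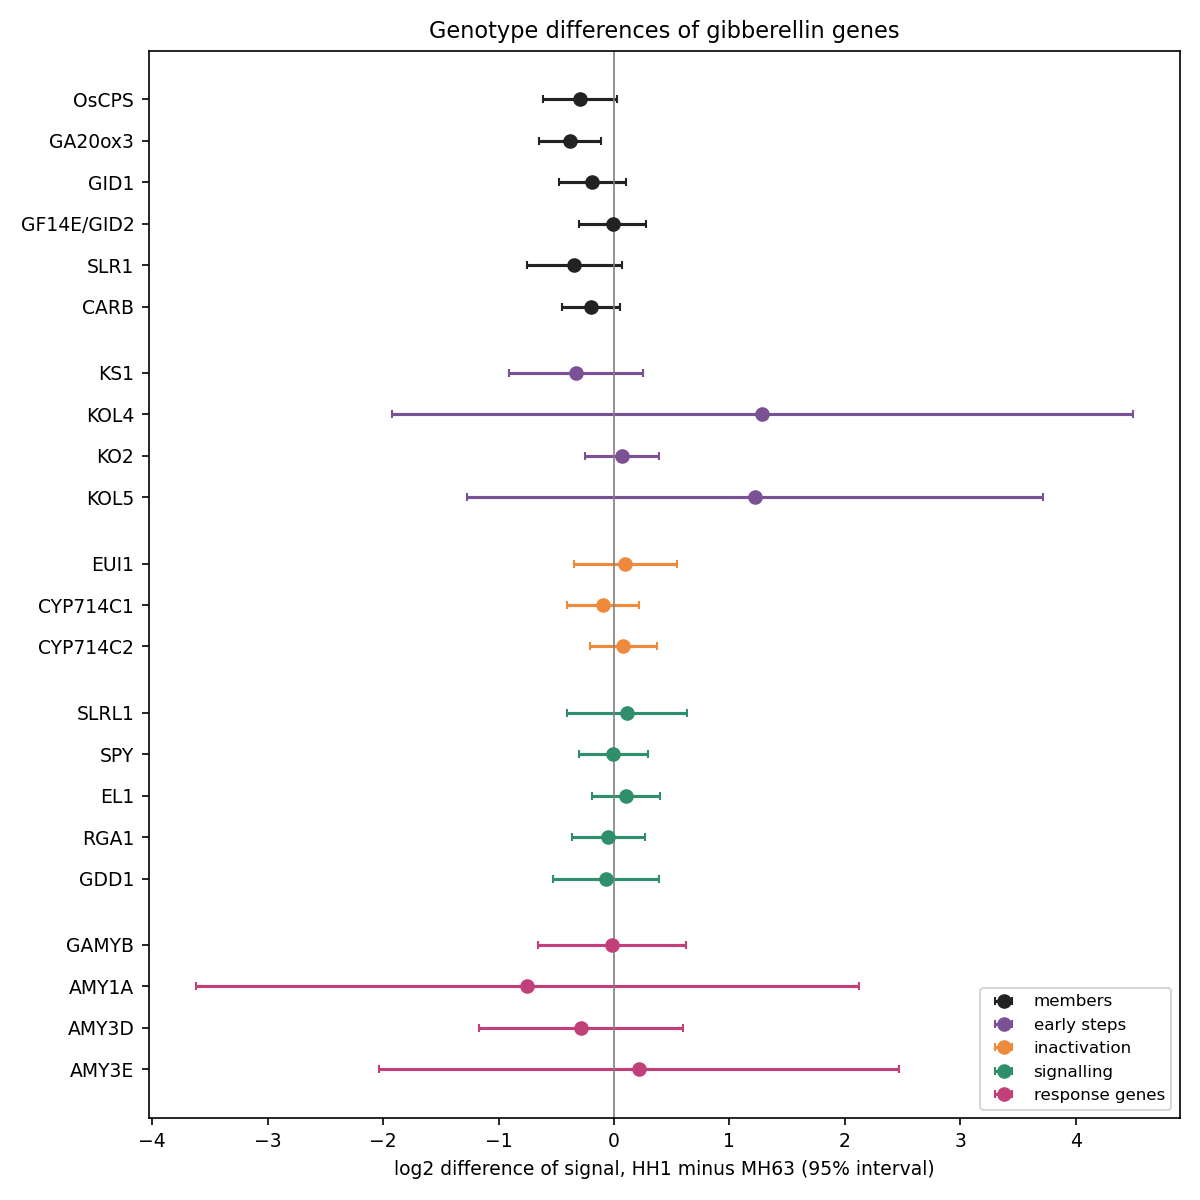
Log2 difference of signal, HH1 minus MH63, with its 95% interval from limma, for matched genes (black, CARB included) and for other genes of the pathway by role; OsKAO, GA20ox2 and AMY3A, with a whole group at or below background, are left out. GA20ox3 is the only gene whose interval lies wholly below 0, and the intervals of KOL4, KOL5, AMY1A and AMY3E are far wider than those of the members.

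Among genes that respond to gibberellin, GAMYB, a MYB transcription factor that activates alpha-amylase genes in cereal aleurone, read 203, 183 and 106 in HH1 and 193, 149.7 and 141 in MH63. The groups overlapped, and the log2 difference was -0.017 with a standard error of 0.27. The GAMYB probe set can also bind related transcripts. AMY1A, an alpha-amylase that gibberellin induces in germinating grain, read 4414, 1645 and 119.8 in HH1 and 1369, 2397 and 1266 in MH63. HH1 thus held both the highest and the lowest array, and the log2 difference was -0.75 with a standard error of 1.21, or 0.75 without HH1 replicate 3. AMY3D, an alpha-amylase known to respond to sugar starvation, read 214, 456 and 154 in HH1 and 334, 288 and 286 in MH63, a log2 difference of -0.29, or 0.053 without HH1 replicate 3.

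Markers of seed and aleurone, where gibberellin drives amylase expression, were set beside these genes. Of 9 markers 2 lay above background on all arrays and 1, the glutelin GLUB4, at or below it on all. Their summed signal in HH1 was 6359.6 on replicate 1, 871 on replicate 2 and 694 on replicate 3, against 903, 643 and 1146 in MH63. HH1 replicate 1 was thus the highest array both in AMY1A and in this sum, while MH63 replicate 2 had the second highest AMY1A signal and the lowest sum of seed markers. On MH63 replicate 2 most of that sum came from LEA3, at 285, and the counted GLUA2 probe set, at 257. A second GLUA2 probe set, not in the sum, read 697 on HH1 replicate 1 and 30.3 to 42.8 on the others. GLUA1, GLUB5, GLUC and RAG1 were above background on HH1 replicate 1 alone. GLUB5 read 1274 there and 12.6 to 27.3 on the other arrays. RAG2 read 3889 on HH1 replicate 1 and 17.1 to 356 on the others. The other markers, by the probe set counted, were not highest on HH1 replicate 1. The glutelin GLUA3, picked out after its values were seen, read 109.8, 157 and 51.6 in HH1 and 11.1, 9.59 and 6.86 in MH63. It was above background on every HH1 array and on no MH63 array, and its adjusted p was 0.039 in limma without the brightness filter, which it did not pass. The part of seed tissue in the amylase signals was not tested.

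**Figure D4:**
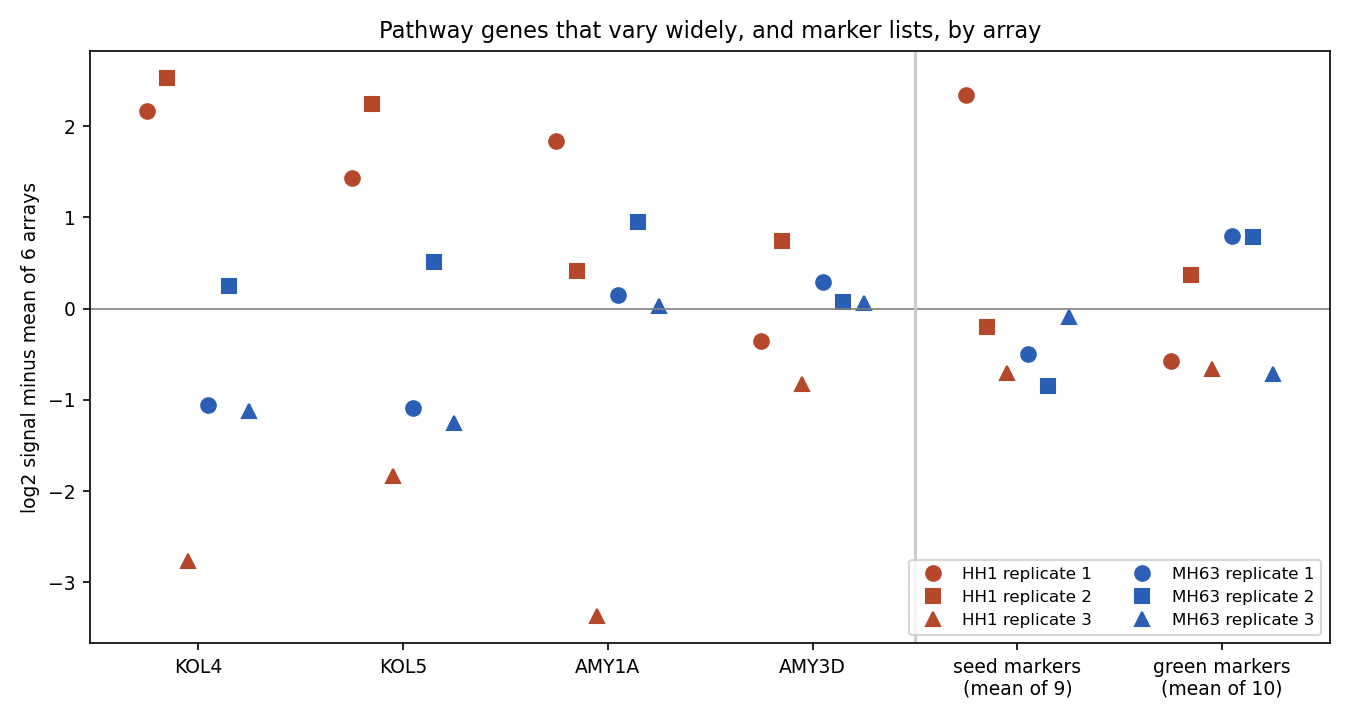
Log2 signal on each array minus the mean of the 6 arrays for KOL4, KOL5, AMY1A and AMY3D, and the same averaged over 9 seed and 10 green shoot markers, with HH1 in red and MH63 in blue. HH1 replicate 3 is the lowest array for all 4 genes, HH1 replicates 1 and 2 are the highest for KOL4 and KOL5, and HH1 replicate 1 stands alone in the mean of the seed markers.

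The patterns over the 6 arrays were also compared between genes, for the 2 members with the widest range among those above background. The measure was the root mean square difference of log2 signals after each gene's mean was removed, over 2606 probe sets of genes with a name. SLR1, with a range of 0.76 on the log2 scale, was closest to RRP46, a subunit of the RNA exosome, at 0.064, then to the aquaporin OsPIP2;4 at 0.074 and the starch synthase SSII-1 at 0.075. OsPIP2;4 read 4409, 3367 and 3498 in HH1 and 4946, 4388 and 5138 in MH63. OsCPS, with a range of 0.55, was closest to SHAT1, an AP2 transcription factor of seed shattering, at 0.049, the homeobox gene HOX20 at 0.052 and rpl5 at 0.055. HOX20 was at or below background on all HH1 arrays, so its pattern there carries no level. With 6 arrays and so many candidates, near matches of this size describe these arrays only.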

How the data were processed

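Total RNA of 3 HH1 and 3 MH63 root samples was labelled from 6 ug, per the labels' protocols, and hybridised to 1 array each. The deposited values are probe set intensity on a linear scale, and the submitters' processing notes name MAS5 without a version; how arrays were scaled, and the genome build, are not given in the sources used here. If signals were summarised over all arrays at once, dim ones would vary too little. Samples were grouped by title. The labels call them biological replicates without naming separate plants.

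The comparison used log2 of the signal with no offset. The 187 controls were left out, and the brighter 50% of the rest by mean over all 6 arrays, 28597 probe sets, were fitted in limma 3.58.1 (R 4.3.3; lmFit, eBayes with a trend), HH1 minus MH63. Tests were two-sided, p-values were adjusted by Benjamini-Hochberg, and 0.05 was the threshold. The filter left out GA20ox2 and the second GID1 probe set, whose p-values come from a fit without it. The fit was also run on simulated data with independent noise and the same spread in both groups. HH1 arrays correlated less with each other than MH63 arrays, so that run does not show how the fit performs here. Precision is limited by how few arrays there are and, for dim probe sets, by background; no detection calls were used. Background was the 95th percentile of reporter signals on each array. Where all arrays of a group were at or below it, no fold is given.

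Genes were matched by symbol or synonym through the platform annotation and the RefSeq gene table of assembly ASM3414082v1, used for names and gene neighbours only. A gene with several probe sets was counted by its brightest one. Named were all matched members and, per role of the other list, the 3 brightest genes and the 2 with the largest difference. The members and lists were chosen with earlier results of these data known. No sequences were used here. Alternatives were quantile normalization, median centring, no filter, the brightest 25%, an offset of 13.2, a replicate block, array weights, no trend in eBayes, each array left out once and, for lists, a gene's probe sets averaged. Figures were drawn with matplotlib 3.10.9.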

Additional observations from a re-analysis of the deposited data

How the results depend on the processing

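The 32 probe sets called over the whole array became 54 with no brightness filter, 17 with the replicate block, 50 with array weights and 8 among the brightest 25%. With 1 array left out the count ran from 0, when HH1 replicate 1 was omitted (843 had an unadjusted limma p under 0.05), to 306, when HH1 replicate 3 was. The filters change how many probe sets are tested; for the others the cause was not tested. Deviations of same-numbered arrays correlated across probe sets at -0.12, 0.45 and 0.31, and those of differently numbered arrays at -0.45 to 0.25. The labels do not say whether same-numbered samples share a source, and these values do not settle it. The replicate block called no gibberellin gene.

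For the 6 matched genes above background on all arrays, CARB among them and OsKAO not, the median log2 difference was -0.25. It was -0.19 without MH63 replicate 1 and -0.28 without MH63 replicate 2, where OsKAO was not tested. Medians that include OsKAO are left out, since it passed the filter through its MH63 signal. The median of the other pathway genes stayed between -0.033 and 0.067, on both sides of 0. With single arrays left out, the count of other pathway genes below 0 ran from 4 to 9 and the count lower in HH1 without overlap from 0 to 2, where fewer arrays make separation easier. Signs turned only for small or widely spread differences. With array weights they were 0.058 for GF14E/GID2, -0.046 for EUI1, -0.013 for SLRL1, 0.00011 for SPY, 0.053 for GDD1 and 0.025 for GAMYB, which was 0.0046 with quantile normalization. With single arrays left out, differences ran from -0.084 to 0.088 for GF14E/GID2, -0.0065 to 0.15 for KO2, -0.090 to 0.24 for EUI1, -0.074 to 0.34 for SLRL1, -0.074 to 0.061 for SPY, -0.20 to 0.14 for GDD1, -0.20 to 0.27 for GAMYB, -1.86 to 0.75 for AMY1A and -0.73 to 0.053 for AMY3D. The cause was not tested. Signal near background limits OsKAO, GA20ox2, CYP714C1 and CYP714C2.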
